A study of Mus musculus with 2 samples.

Results

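The miR-23, miR-27 and miR-24 microRNAs were examined in the newborn mouse retina. They come from a pair of gene clusters of 3 hairpins each. The members were the 10 arms of these hairpins named miR-23a-3p, miR-23b-3p, miR-23b-5p, miR-24-3p, miR-24-1-5p, miR-24-2-5p, miR-27a-3p, miR-27a-5p, miR-27b-3p and miR-27b-5p, taken by name, and all 10 were found among the 1358 miRNAs of the count table. Small RNA had been sequenced from retina at postnatal day 0. The mice were wild type and of CD-1, which is an outbred stock. The series held 1 group of 2 libraries, replicate 1 and replicate 2, with 8337931 and 8118224 counts, and so no treatment, genotype or age to compare. The labels do not say whether the replicates came from separate animals, and their spread may therefore be technical. The p-values cover counting error of reads in these libraries only.

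A miRNA hairpin is cut to a duplex of its 5p and 3p arms, of which usually one, the guide, is loaded onto an Argonaute protein, while the other, the passenger, is mostly degraded. The guide finds target mRNAs through its seed, bases 2 to 8. The clusters are known from endothelial cells, where miR-23 and miR-27 promote vessel growth and repress Sprouty2 and Sema6A. In the Xenopus retina, miR-24a holds back apoptosis by repressing caspase 9 and Apaf1. miR-27 is also known for restraining fat cell differentiation and miR-23 for repressing glutaminase in human tumour cells.

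The sequences show which copies can be told apart by a read. RefSeq (GRCm38.p6) held a mature entry for 9 of the 10 members, and for miR-23b-3p the most frequent read of both libraries is shown instead, in DNA letters. Capitals mark the seed. The 3p arms are given first, grouped by seed, and then the 5p arms.
miR-27b-3p: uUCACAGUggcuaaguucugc
miR-27a-3p: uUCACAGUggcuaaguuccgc
miR-23b-3p: aTCACATTgccagggattaccact
miR-23a-3p: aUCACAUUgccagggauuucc
miR-24-3p: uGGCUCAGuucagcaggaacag
miR-27b-5p: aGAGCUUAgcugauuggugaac
miR-27a-5p: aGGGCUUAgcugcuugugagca
miR-24-1-5p: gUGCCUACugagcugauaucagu
miR-24-2-5p: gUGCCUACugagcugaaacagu
miR-23b-5p: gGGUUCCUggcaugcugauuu

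Each pair of 3p copies shares its seed and differs at 1 base near the 3′ end. The substitution was U19C from miR-27b-3p to miR-27a-3p, and A19T from the most frequent read of miR-23b-3p to that of miR-23a-3p, where position 1 is the 5′-most base. miR-24-3p is the same in both clusters, so its count cannot be assigned to either. The 5p arms differ more. Compared position by position without gaps, miR-27b-5p and miR-27a-5p differed at 8 of 22 bases, 1 of them in the seed (A3G). miR-24-1-5p and miR-24-2-5p, of 23 and 22 bases, differed at 5 of 22 compared bases, all behind a shared seed. A base missing from 1 copy shifts all later bases and counts here as several differences, so an alignment with gaps would give fewer.

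On GRCm38 the cluster on chromosome 13 spans 792 bases of the plus strand (chr13:63300484-63301275) and that on chromosome 8 spans 404 bases of the plus strand (chr8:84208518-84208921). Both run in the order miR-23, miR-27, miR-24. On chromosome 13, gaps of 154 and 423 bases separate Mir23b, Mir27b and Mir24-1. On chromosome 8, gaps of 79 and 56 bases separate Mir23a, Mir27a and Mir24-2. In GENCODE M21 the chromosome 13 cluster lies within 2010111I01Rik, a protein-coding gene of the same strand. Mir23b was intronic in all 9 overlapping transcripts of this gene, Mir27b was exonic in 1 of 9 and Mir24-1 overlapped an exon in 4 of 11. An intron of Fancc, a gene of the Fanconi anaemia DNA repair pathway, lies on the opposite strand. Mir23a and Mir27a overlapped no annotated transcript other than their own, and Mir24-2 overlapped an exon of Gm26532, a lincRNA of the same strand.

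The hairpins of miR-24 show how one guide is paired with different passengers. Mature arms are in capitals, Mir24-1 at chr13:63301208-63301275 and Mir24-2 at chr8:84208815-84208921, both on the plus strand of GRCm38.
Mir24-1: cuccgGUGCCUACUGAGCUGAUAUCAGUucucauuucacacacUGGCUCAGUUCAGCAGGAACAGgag
Mir24-2: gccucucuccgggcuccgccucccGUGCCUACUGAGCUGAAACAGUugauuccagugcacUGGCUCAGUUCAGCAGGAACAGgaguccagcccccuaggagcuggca

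miR-27b-3p and miR-24-3p carried most of the clusters' counts. miR-27b-3p was at 1808 and 2020 CPM (the count of a miRNA scaled to the total of the table) in replicates 1 and 2, a mean of 1914 ± 150.3 CPM (SD, n = 2) and rank 50 of 1358. miR-24-3p was at 1180 and 967 CPM, a mean of 1073 ± 150.5 CPM and rank 71. miR-27b-3p was the higher in both libraries, by 1.53-fold and 2.09-fold. Together they held 88.7% ± 0.939 of the members' counts. All 10 members held 0.339% of the counts in replicate 1 (exact binomial 95% interval 0.335 to 0.343) and 0.334% in replicate 2 (0.330 to 0.338). Such intervals cover counting error of reads only. Amplified reads are not independent molecules, so the intervals may be too narrow for molecules.

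The other 3p arms were lower, and their values over the libraries did not overlap one another. miR-23b-3p was at 170.8 and 151.0 CPM, a mean of 160.9 ± 14.0 CPM and rank 153. miR-27a-3p was at 135.0 and 112.3 CPM, a mean of 123.7 ± 16.1 CPM and rank 169. miR-23a-3p was at 29.98 and 30.67 CPM, a mean of 30.3 ± 0.487 CPM and rank 270. The 3p arms are thus led by the copy with b in its name for both miR-27 and miR-23.

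The 5p arms made up 1.96% ± 0.162 of the members' counts. miR-27b-5p was at 28.06 and 27.47 CPM, a mean of 27.8 ± 0.421 CPM. miR-24-2-5p was at 21.83 and 16.63 CPM, and miR-27a-5p at 12.83 and 10.47 CPM. Below them came miR-24-1-5p at 4.56 and 4.80 CPM, from 38 and 39 counts, and miR-23b-5p at a mean of 2.61 ± 0.552 CPM, from 25 and 18 counts. The remaining arm of these hairpins, miR-23a-5p, had 0 counts in both libraries, so that, at 3 counts of the total, it may have been at 0.360 CPM or less in the first library and at 0.370 CPM or less in the other.

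**Figure D1:**
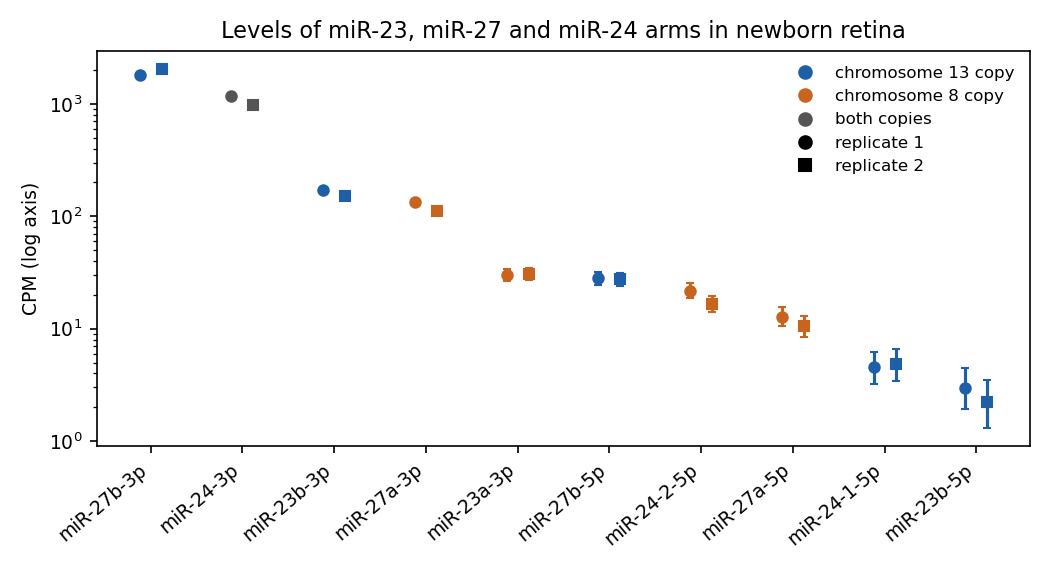
CPM of the 10 arms in each library on a log axis, with exact binomial 95% intervals that cover counting error only; colours mark the cluster. miR-27b-3p and miR-24-3p lie around 1000 CPM or above in both libraries, and the lowest arm, miR-23b-5p, is near 3 CPM.

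The members were ordered by their mean levels in these same libraries, which sets the higher arm of each pair beforehand. In this order, 7 of the 9 neighbouring pairs differed by more than the spread. A ratio was counted so where the 95% interval of the larger arm's share lay above 50% in both libraries and the log2 ratio, with 0.5 added to each count, averaged more than 2 SD from 0; no p-value goes with it. miR-23a-3p could not be set apart from miR-27b-5p (log2 ratio 0.13 ± 0.045), nor miR-24-1-5p from miR-23b-5p (0.84 ± 0.35). All 10 members were detected in both libraries, against 922 of all 1358 miRNAs. miR-23a-5p, the arm of these hairpins at 0 counts, is not among the members. Of the members, 8 reached 10 CPM, 4 reached 100 CPM and 2 reached 1000 CPM, against 364, 180 and 74 of all 1358 miRNAs. The median member was at 29.0 CPM and the median of all miRNAs at 0.730 CPM. Levels of different sequences also hold their yield in adapter ligation, and in whole tissue fewer cells of a type and less RNA per cell cannot be told apart.

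The copy on chromosome 13 gave more of the miR-27 and miR-23 reads. miR-27b-3p had 15071 and 16399 counts in replicates 1 and 2, against 1126 and 912 counts of miR-27a-3p. The log2 ratio was 3.95 ± 0.30 (SD, n = 2), or 15.5-fold. miR-23b-3p had 1424 and 1226 counts, against 250 and 249 counts of miR-23a-3p, a log2 ratio of 2.40 ± 0.15 or 5.29-fold. Neither pair of copies overlapped, and both ratios were larger than the spread. The arms that only the chromosome 13 cluster encodes held 2110 ± 135 CPM and those that only the chromosome 8 cluster encodes held 185 ± 20.9 CPM, leaving out miR-24-3p.

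The passenger of miR-24 went the other way. miR-24-1-5p of chromosome 13 had 38 and 39 counts, against 182 and 135 counts of miR-24-2-5p of chromosome 8. Its share of both arms was 17.3% in replicate 1 (exact 95% interval 12.5 to 22.9) and 22.4% in replicate 2 (16.5 to 29.3). The log2 ratio was -2.01 ± 0.33. This comparison, and that of the miR-27 passengers, was chosen after the values were seen.

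The miR-27 passengers differed less than the guides. miR-27b-5p had 234 and 223 counts, against 107 and 85 counts of miR-27a-5p, a log2 ratio of 1.26 ± 0.18 or 2.39-fold. The log2 ratio of the copies was thus larger in the 3p than in the 5p arm by 2.62 and 2.78 in replicates 1 and 2 (mean 2.70 ± 0.12). For miR-23, miR-23b-5p had 25 and 18 counts against none of miR-23a-5p, at least 8.33-fold and 6-fold higher if 3 counts per library are taken as the limit of a count of 0.

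**Figure D2:**
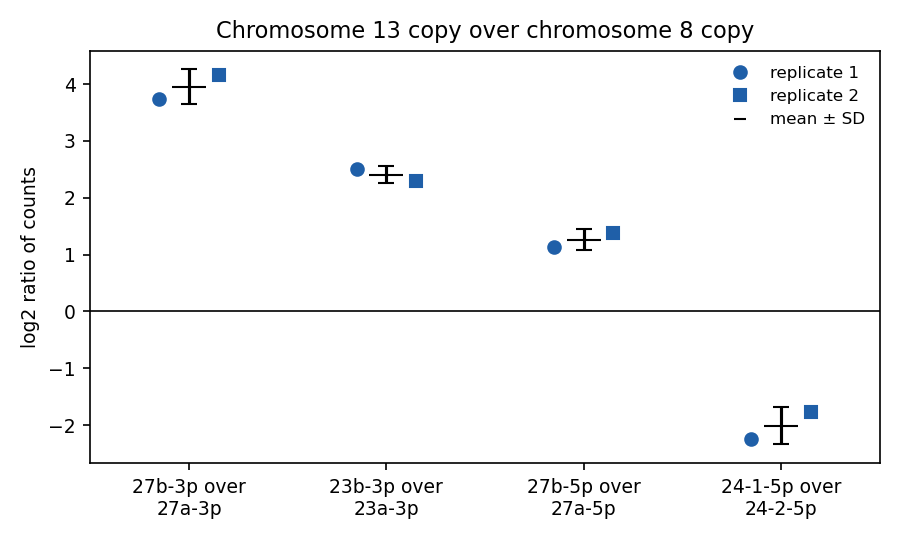
Log2 ratio of counts of the chromosome 13 copy over the chromosome 8 copy for 4 pairs of arms; circles and squares are replicates 1 and 2, and the bars give the mean ± SD. The ratio is above 0 for both miR-27 pairs and for miR-23 3p, and below 0 for the miR-24 5p arms at -2.01.

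In replicate 1 the deposited counts of miR-23a-3p, miR-23b-3p, miR-27a-3p and miR-27b-3p each ended in 0.5, and in replicate 2 they were whole. A read that ends before base 19 matches both copies of these 3p arms, so their ratios are uncertain where counting split such reads. How far the copies exchanged reads was not tested. The 5p arms differ at more bases, and their counts were whole in both libraries.

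Within a cluster the arms were far from equal, although the hairpins are close neighbours. On chromosome 13, miR-27b-3p exceeded miR-23b-3p by 10.6-fold and 13.4-fold (log2 ratio 3.57 ± 0.24). On chromosome 8, miR-27a-3p exceeded miR-23a-3p by 4.50-fold and 3.66-fold (log2 ratio 2.02 ± 0.21). miR-27 was thus above miR-23 in both clusters. miR-24-3p, counted once for both clusters, stood between the miR-27 copies. Its log2 ratio was -0.84 ± 0.32 to miR-27b-3p and 3.12 ± 0.015 to miR-27a-3p. Against the miR-23 copies its log2 ratio was 2.73 ± 0.078 to miR-23b-3p and 5.14 ± 0.23 to miR-23a-3p. All of these were larger than the spread.

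**Figure D3:**
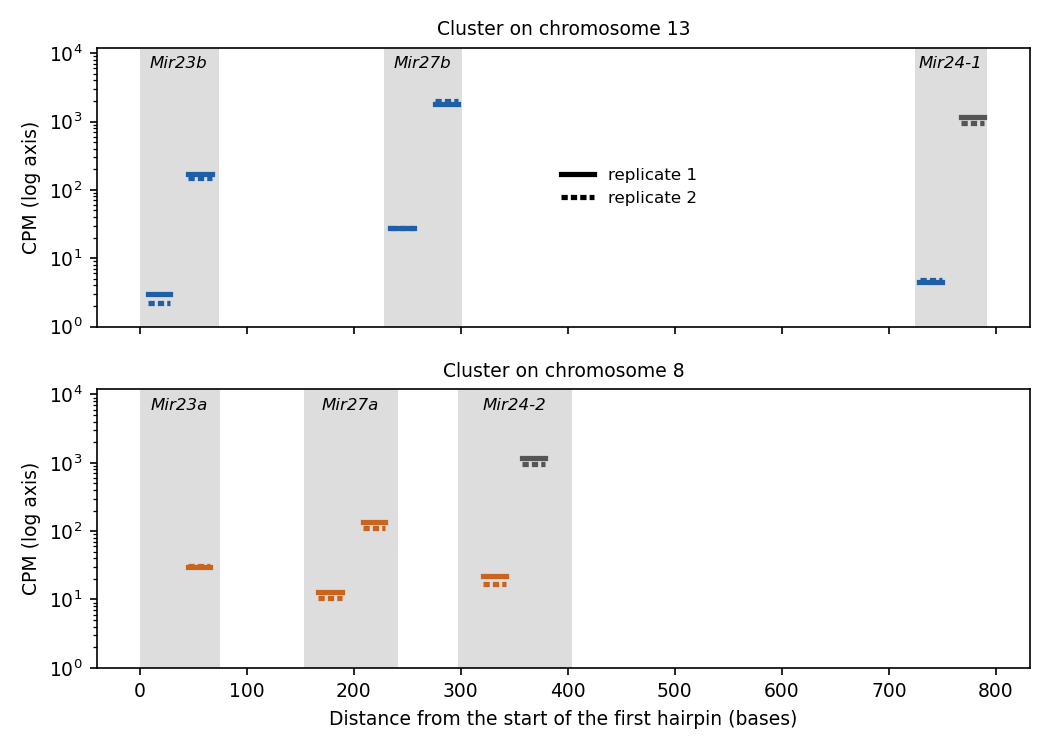
Positions of the most frequent reads in both clusters (distance from the start of the first hairpin in bases, grey bands are hairpins) against CPM on a log axis; solid lines are replicate 1 and dashed lines replicate 2, and the dark grey lines are miR-24-3p, drawn in both clusters with its whole level. In Mir23b, Mir27b and Mir27a the 3p arm lies above the 5p arm; for the miR-24 hairpins the level of the 3p arm from each is not known.

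The 3p arm was the higher in each of the 4 miR-23 and miR-27 hairpins, and for miR-24 when its hairpins were summed. miR-27b-5p made up 1.53% and 1.34% of the counts of its hairpin, the rest being miR-27b-3p, and miR-23b-5p made up 1.73% and 1.45%. miR-27a-5p had a larger share of 8.68% (exact 95% interval 7.17 to 10.4) and 8.53% (6.87 to 10.4). Its interval did not overlap those of the other hairpins in either library. miR-23a-5p was at 0 of 250 and 0 of 249 counts, with exact 95% intervals up to 1.46% and 1.47%. If 3 counts are instead taken as the limit of a count of 0, its share was up to 1.2% in each library. By that limit miR-23a-3p was at least 83.3-fold and 83.0-fold higher. The 5p arms of miR-24 together had 220 and 174 counts against 9836 and 7849 counts of miR-24-3p, 2.188% and 2.169% of the sum.

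To set this beside other miRNAs, the counts of 5p and 3p were tested for equality in each library over 312 hairpins. These had rows for both arms, with 10 or more counts over the arms per library. The test was the exact binomial one, two-sided, with p-values adjusted by Benjamini-Hochberg over hairpins and libraries. An arm counted as higher if the adjusted p was below 0.05 and the sign equal in each library, and the mean exceeded 2 SD. The 3p arm was called higher in 43.3% of all hairpins and in all 4 member hairpins that could be tested by name (adjusted p at most 4.91e-75 in this exact test, in miR-23a). The log2 ratio of 5p over 3p was -6.10 ± 0.14 for miR-27b, -5.93 ± 0.17 for miR-23b and -3.40 ± 0.019 for miR-27a.

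**Figure D4:**
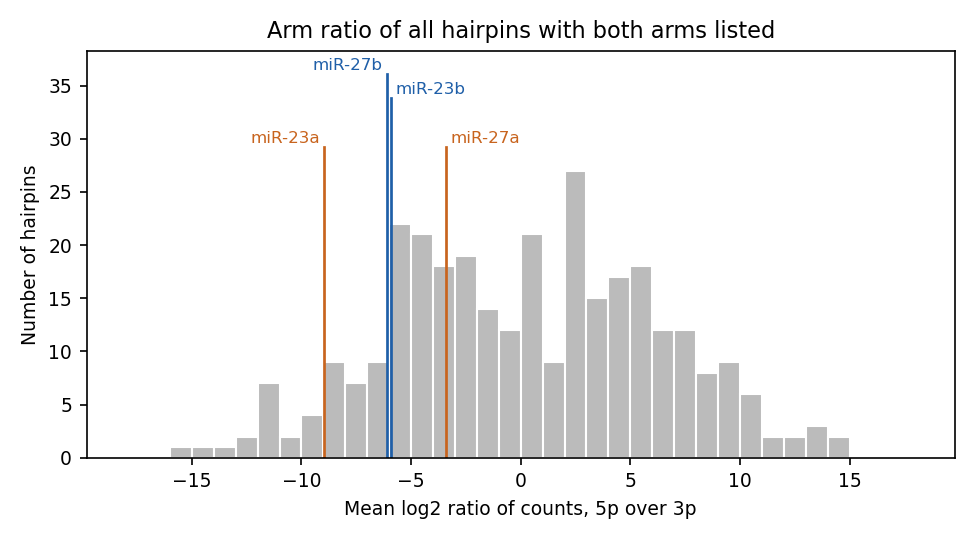
Mean log2 ratio of 5p over 3p counts (x axis) for 312 hairpins, as a histogram of the number of hairpins, with the 4 member hairpins as lines (blue, chromosome 13; orange, chromosome 8). All 4 lie left of 0, with miR-27a nearest to 0 at -3.40; the place of miR-23a depends on the 0.5 added to its count of 0.

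The most frequent read was the same in both libraries for 9 of the 10 members. It started at the RefSeq base in both libraries for 8 of the 9 members with a mature entry, so the seeds printed above are those of the reads. Several reads were shorter at the 3′ end. Those of miR-27a-3p, miR-24-2-5p and miR-23b-5p ended 1 base before the RefSeq end.

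2 members had other ends. For miR-24-1-5p, at 38 and 39 counts, the most frequent read of replicate 1 began 1 base earlier than RefSeq, which moves the seed by 1 base. That of replicate 2 began at the RefSeq base. Both of these reads ended 2 bases before the RefSeq end. The capitals again mark bases 2 to 8.
miR-24-1-5p, replicate 1: gGTGCCTActgagctgatatca
miR-24-1-5p, replicate 2: gTGCCTACtgagctgatatca
The read of miR-23b-3p, printed with the 3p arms, was 24 bases long in both libraries. The authors' marks set its last 3 bases beyond the miRBase 21 end. Its first 23 bases matched the Mir23b hairpin and the last did not (G24T, the hairpin base first, positions counted from the read's 5′ end).

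By seed, the miR-27 arms ranked highest of the members. Counts were summed over all miRNAs whose most frequent reads share bases 2 to 8, which gave 1110 seed groups. The group of miR-27b-3p and miR-27a-3p held 1943 and 2132 CPM, a mean of 2037 ± 134 CPM, and ranked 32. miR-24-3p was alone in its group, at rank 50, and the group of miR-23b-3p and miR-23a-3p held 191 ± 13.5 CPM at rank 117. None of these 3 groups held a miRNA other than the members. With bases 2 to 7 alone, miR-673-5p joined the miR-27 group and the ranks were 30, 49 and 116 of 928.

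miR-128-3p, a neuronal miRNA, carries the miR-27 seed shifted by 1 base: bases 2 to 7 of its read are bases 3 to 8 of miR-27. The mature sequence, from hairpins on chromosomes 1 and 9, has its bases 2 to 8 in capitals.
miR-128-3p: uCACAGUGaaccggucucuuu
The miR-27 3p arms together had 0.229 and 0.281 times the counts of miR-128-3p, which was at 8493 and 7588 CPM. Both libraries thus held fewer reads of the miR-27 arms than of miR-128-3p (log2 ratio -1.98 ± 0.21). The same bases stand at 2 to 7 of miR-6539, at a mean of 0.485 CPM. For miR-24-3p the shift ran the other way, with its bases 1 to 6 at bases 2 to 7 of miR-1291, at a mean of 3.89 CPM.

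The miR-24 hairpins overlap those of Mir3074-1 and Mir3074-2, which are annotated on the opposite strand. miR-3074-5p matched both of these hairpins, so its count cannot be assigned to either. miR-3074-5p reads pair with miR-24-3p over 20 of their 22 bases. The sequence, from the minus strand, has its bases 2 to 8 in capitals.
miR-3074-5p: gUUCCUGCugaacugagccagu
miR-24-3p had 9836 and 7849 counts against 282 and 239 counts of miR-3074-5p, 34.8-fold and 32.8-fold more. The other arm, miR-24-1-5p, had 38 and 39 counts against 51 and 34 counts of the antisense miR-3074-1-3p, and this ratio lay within the spread (log2 ratio -0.11 ± 0.43). The most frequent reads of miR-24-3p and miR-3074-5p matched over all 22 bases in both libraries, on the plus and the minus strand. How counting treated strand is not stated, and whether reads of the opposite strand entered these counts was not tested.

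Beside the vascular miRNAs, miR-27b-3p and miR-24-3p were above miR-126a-3p and the other 3p arms below it. miR-126a-3p, from the endothelial gene Egfl7, was at 969 and 840.5 CPM. miR-27b-3p exceeded it by 1.87-fold and 2.40-fold (log2 ratio 1.08 ± 0.26) and miR-24-3p by 1.217-fold and 1.150-fold (0.24 ± 0.058), both larger than the spread. miR-23b-3p (log2 ratio -2.49 ± 0.020), miR-27a-3p (-2.87 ± 0.043) and miR-23a-3p (-4.89 ± 0.17) were below it.

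miR-143-3p of smooth muscle and pericytes was at 58.4 and 64.9 CPM. miR-27b-3p exceeded it by 31.0-fold, miR-24-3p by 17.3-fold, miR-23b-3p by 2.61-fold and miR-27a-3p by 2.00-fold, whereas miR-23a-3p was at 0.493 times its counts. miR-145a-5p, its cluster partner, had 1 and 2 counts. miR-221-3p and miR-222-3p, a pair known from the vessel wall, were at 101 ± 5.83 and 118 ± 9.81 CPM, and the passenger miR-126a-5p at 14.8 ± 2.30 CPM. These values do not show which cells held the members, which was not tested.

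The label of the tissue was checked against marker miRNAs. miR-9-5p, miR-182-5p, miR-183-5p, miR-96-5p and miR-124-3p, miRNAs of neural retina, were at mean levels between 649 CPM for miR-124-3p and 227199 CPM for miR-9-5p, the highest of all miRNAs. Of the blood markers miR-451a had 3 counts in each library, miR-486a-5p 513 in each, miR-142a-3p 16 and 17, while both miR-150-5p and miR-223-3p were at 0. The deposited count of miR-486a-5p was 512.5 in each library, and whether counting split its reads with another miRNA was not tested. Of the markers listed for pigment epithelium, miR-211-5p had 50 and 43 counts, a mean of 5.65 ± 0.495 CPM. miR-204-5p, also listed, had a mean of 3389 ± 558 CPM. These markers lay far apart, so they give no single level for pigment cells. The part of blood and pigment cells in the members' levels was not tested.

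By level over both libraries, the miRNAs nearest to miR-27b-3p outside the clusters were miR-532-5p (distance 0.078 in log2 CPM), miR-744-5p (0.12) and miR-30a-3p (0.19). Nearest to miR-24-3p were miR-382-5p (0.053), miR-300-3p (0.19) and miR-543-3p (0.24). With 2 libraries such likeness is one of level and says little of pattern.

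The libraries differed in several members by a small amount. The test, again an exact binomial one and two-sided, took its share from the table totals and covered the 710 miRNAs with 10 or more counts over both libraries, over which Benjamini-Hochberg adjustment was made. Over all miRNAs 19.6% were called higher and 8.17% called lower in replicate 1, against 3 and 1 of the 10 members. miR-24-3p (log2 ratio of replicate 1 over replicate 2 0.29, adjusted p = 2.17e-38), miR-27a-3p (0.27, adjusted p = 0.000209) and miR-23b-3p (0.18, adjusted p = 0.00748) were higher in replicate 1 in this exact test. miR-27b-3p was lower in replicate 1 (-0.16, adjusted p = 8.28e-22). The test compares these libraries, not conditions.

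The calls depended on the level and partly on the scaling. At 1000 CPM or more, 68 of 74 miRNAs were called, so the calls of miR-27b-3p and miR-24-3p are the usual case at that depth. Over the miRNAs tested the log2 ratio had a median of 0.12 by table totals and 0.0018 by TMM scaling. The split of all calls, higher to lower in replicate 1, was 139 to 58 by table totals, 78 to 107 by TMM and 88 to 99 by DESeq2 size factors. miR-24-3p and miR-27b-3p kept their calls and directions under TMM and DESeq2 scaling. miR-23b-3p was called under neither (adjusted p = 0.558 and 0.393, exact test) and miR-27a-3p under DESeq2 size factors alone. Ratios of members within a library do not depend on this scaling.

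**Figure D5:**
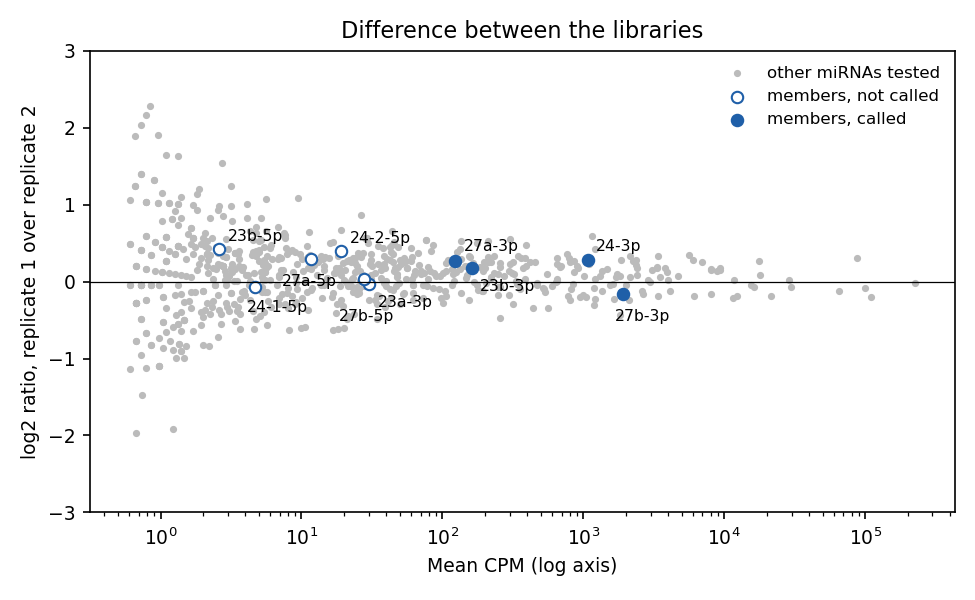
Mean CPM on a log axis against the log2 ratio of replicate 1 over replicate 2 by table totals for the 710 miRNAs tested (grey) and the 10 members (blue, filled where called). The members lie between -0.16 (miR-27b-3p) and 0.42 (miR-23b-5p, not called).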

How the data were processed

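Small RNA of 18 to 30 nt had been taken from a gel and made into libraries by adapter ligation, per the labels' protocols. The submitters' processing notes name bcl2fastq 2.17.1.14. Which aligner, counter and build were used is not given in the sources used here. The deposited count table held estimated counts per mature miRNA, 6.77% and 5.96% of its cells not whole, and counts were rounded here. The deposited CPM table, scaled by the authors, summed to 88.5% of full scale in both libraries, so CPM was recomputed from table totals. The third deposited table held the most frequent read of each miRNA, marked against miRBase 21 per the file headers. Coordinates are those of RefSeq and GENCODE M21 (GRCm38).

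Named miRNAs were the members, overlapping, seed-related and vascular miRNAs, fixed markers and the 3 nearest in level to each of the 2 highest members. Members and lists were chosen with earlier results of these data known. The exact tests were tested on simulated data. With 1 group no model across conditions could be fitted. Tests and intervals (exact Clopper-Pearson, 95%) used SciPy 1.17.1 and statsmodels 0.14.6 in Python 3.11.15, tables NumPy 2.4.6 and pandas 2.3.3, plots matplotlib 3.10.9, and scaling edgeR 4.0.16 (TMM) and DESeq2 1.42.0 (size factors) in R 4.3.3. Alternatives were the scaling, a pseudocount of 1 in place of 0.5, unrounded counts, no count filter, bases 2 to 7 as seed, an equal split of miR-24-3p, the deposited CPM and leaving out each library.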

Additional observations from a re-analysis of the deposited data

How the results depend on the processing

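The share of counts of the 10 members was 0.337%, and 0.298% by the authors' deposited CPM, whose columns sum to 88.5% of full scale. If miR-24-3p is split equally between its 2 hairpins, its log2 ratios are -1.84 to miR-27b-3p, 2.12 to miR-27a-3p, 1.73 to miR-23b-3p and 4.14 to miR-23a-3p, each lower by construction. Under TMM scaling 2 members were called between the libraries, against 4 by table totals and 3 with DESeq2 size factors. Of all miRNAs, 78 were higher and 107 lower in replicate 1 under TMM, 88 and 99 with DESeq2 size factors, against 139 and 58. miR-27b-5p, not called in any, had log2 ratios of -0.089 (TMM) and -0.069 (DESeq2) against 0.031 by table totals. Without replicate 1 or without replicate 2, each ratio and level moved by less than its SD, which 2 libraries cannot exceed by construction. A pseudocount of 1, unrounded counts, no count filter and bases 2 to 7 as seed changed no call or direction of the members where they were run. Without the filter, 183 of 1148 miRNAs were called between the libraries, against 197 of 710, and 139 of 429 hairpins were called with 3p higher, against 135 of 312. The ratios of passengers and of the miR-24 arms were added after seeing the data. Counts of 18 to 39 limit miR-23b-5p and miR-24-1-5p. No paired analysis was possible because the series holds 1 group.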
